A study of Mus musculus with 10 samples.

Results

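Glycolysis converts glucose to pyruvate and lactate in the cytosol, and its genes share much of their control with the cellular response to low oxygen. The genes described here were a set of 36 such genes out of the 28185 listed in the expression table, chosen by function and found in the table by symbol. They comprised 2 glucose transporters, 3 hexokinases with the following isomerase, 5 phosphofructokinases and bifunctional regulators, 7 enzymes of lower glycolysis and 4 genes that decide the fate of pyruvate and lactate. The hypoxia arm comprised 3 subunits of hypoxia-inducible factors (HIFs), 2 oxygen sensors, 3 genes of mitochondrial stress and mitophagy and 6 other HIF-responsive genes. All 36 were in the table. The mean over all libraries reached 10 normalized counts for 35 of them, which were tested, whereas Adm (adrenomedullin, a vasodilator peptide) did not reach it and was described by its levels alone.

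The RNA came from Ly6G+ cells, the bead selection used for mouse neutrophils, of C57Bl/6J male mice aged 12 to 16 weeks whose left coronary artery had been ligated to cause a myocardial infarction (MI). Every group carried the infarct, and hearts and blood were taken at day 3. The groups MI (3 libraries) and Blood (2 libraries) came from the infarcted left ventricle and the blood of mice given no cells. The groups MI + MSC (3 libraries) and Blood + MSC (2 libraries) came from mice that received syngeneic bone marrow mesenchymal stromal cells (MSCs) under the skin at 3 sites, 1000000 cells per site, within 30 to 60 min of ligation. The labels did not state that each library came from a different mouse, so p-values measured the spread between these libraries. Their batch field matched the group throughout, so batch and group cannot be told apart.

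Neutrophils have few mitochondria that contribute ATP and draw on glycolysis for most of it. HIFs are pairs of an oxygen-regulated alpha subunit and the constant partner ARNT. With oxygen present, prolyl hydroxylases mark the alpha subunit for destruction. When oxygen falls it persists, binds short DNA motifs known as hypoxia response elements and raises transcription of glucose transporters, glycolytic enzymes and genes of mitophagy.

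The libraries held 148594 to 8602711 reads on genes, and 2 stood apart as shallow. One read was worth 8.4 normalized counts in library MI 13, 7.07 in Blood 21 and 0.168 to 2.30 elsewhere. MI 13 was the lowest of the 6 cardiac libraries for 21 of the 35 tested members (60%), against 36.7% of all 11549 genes tested, so each result that rested on it is given with and without it. Neutrophil markers (14 of 14 found) summed to 2555 to 13570 normalized counts in cardiac libraries and 16770 to 53440 in blood libraries. The 10 macrophage and monocyte markers summed to 3168 to 12730 in cardiac libraries and 6737 to 8839 in blood libraries. The sums of 10 cardiomyocyte markers were 3265 to 24900 and 22.6 to 63.6, those of 10 endothelial markers were 456 to 2054 and 74.5 to 1639, and those of 8 mural cell markers were 282 to 1219 and 70.2 to 120.1. The endothelial marker Cldn5 was at 0 in all blood libraries. The top endothelial value in blood was that of Blood 21, which held 911 normalized counts of Vwf, a gene that megakaryocytes also express, and whose sum of 9 platelet markers was 27390, against 604 to 1144 in the other blood libraries. These were bulk samples, in which fewer cells of a type and less RNA per cell cannot be told apart.

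To show the DNA context of the set, the 300 bases upstream of each gene's annotated canonical start on GRCm39 were searched on both strands for the core of that element, ACGTG, with GCGTG as its other form. ACGTG was present in 18 of 36 members (50.0%), against 19.7% of 21757 protein-coding promoters of that length and 24.4% of those of tested genes. GCGTG was present in 22 members (61.1%), against 34.0% and 44.8%. At least 1 form was present in 28 members (77.8%), against 45.1% and 57.0%. The E-box CACGTG, which contains ACGTG on both strands, was present in 6 members (16.7%), against 6.95% of all coding promoters and 8.7% of those of tested genes. A match is a description of letters and not of binding.

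The stretches below hold ACGTG in 5 members that passed a test between heart and blood, followed by 3 members that did not pass with all 10 libraries fitted together (Pgk1, Ldha and Bnip3) for comparison. Each is 60 bases, printed 5′ to 3′ on the gene's strand, with either form in capitals on either strand (so that CACGT is the first form read on the other strand, whereas CACGC is the second).
Hk2, chr6:82751630-82751689, - strand: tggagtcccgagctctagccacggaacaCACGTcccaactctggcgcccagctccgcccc
Pfkm, chr15:98006080-98006139, + strand: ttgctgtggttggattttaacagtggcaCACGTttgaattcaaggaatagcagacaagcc
Egln1, chr8:125677003-125677062, - strand: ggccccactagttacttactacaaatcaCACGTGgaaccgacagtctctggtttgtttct
Bnip3l, chr14:67246445-67246504, - strand: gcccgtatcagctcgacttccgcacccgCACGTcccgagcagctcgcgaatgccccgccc
Ankrd37, chr8:46453097-46453156, - strand: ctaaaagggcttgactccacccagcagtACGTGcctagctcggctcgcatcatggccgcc
Pgk1, chrX:105230528-105230587, + strand: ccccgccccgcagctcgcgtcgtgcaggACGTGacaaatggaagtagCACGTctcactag
Ldha, chr7:46495055-46495114, + strand: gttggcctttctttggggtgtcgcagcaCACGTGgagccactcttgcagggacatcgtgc
Bnip3, chr7:138511312-138511371, - strand: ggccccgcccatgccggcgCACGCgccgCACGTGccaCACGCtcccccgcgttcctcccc
The motifs started between 90 and 223 bases upstream of the annotated start. Those of Egln1, Ldha and Bnip3 were the palindromic E-box, and the Bnip3 stretch also held GCGTG on the other strand. ACGTG was also present in Slc16a1 (within the E-box, 31 bases upstream) and Ddit4 (117 bases upstream), which passed a test and are not printed. The windows of Slc2a3 and Pfkl, both of which passed a test below, held neither form.

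Levels across the set spanned wide ranges. Values per library are normalized counts, always in the order 13, 19 and 20 for MI, 15, 17 and 18 for MI + MSC, 21 and 22 for Blood, and 23 and 24 for Blood + MSC. Per kilobase of exon, the order in MI was led by Gapdh at 207 normalized counts per kilobase, Aldoa at 158, Pkm at 124 and Ldha at 114. In Blood the order was led by Slc2a3 at 383 per kilobase, then Gapdh at 286, Pkm at 272, Aldoa at 257 and Bnip3l at 201. Gapdh, Pgk1, Ldha, Pkm, Aldoa, Eno1, Tpi1 and Pgam1 have close processed copies in the mouse genome that can share reads with them, so their values are uncertain.

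**Figure D1:**
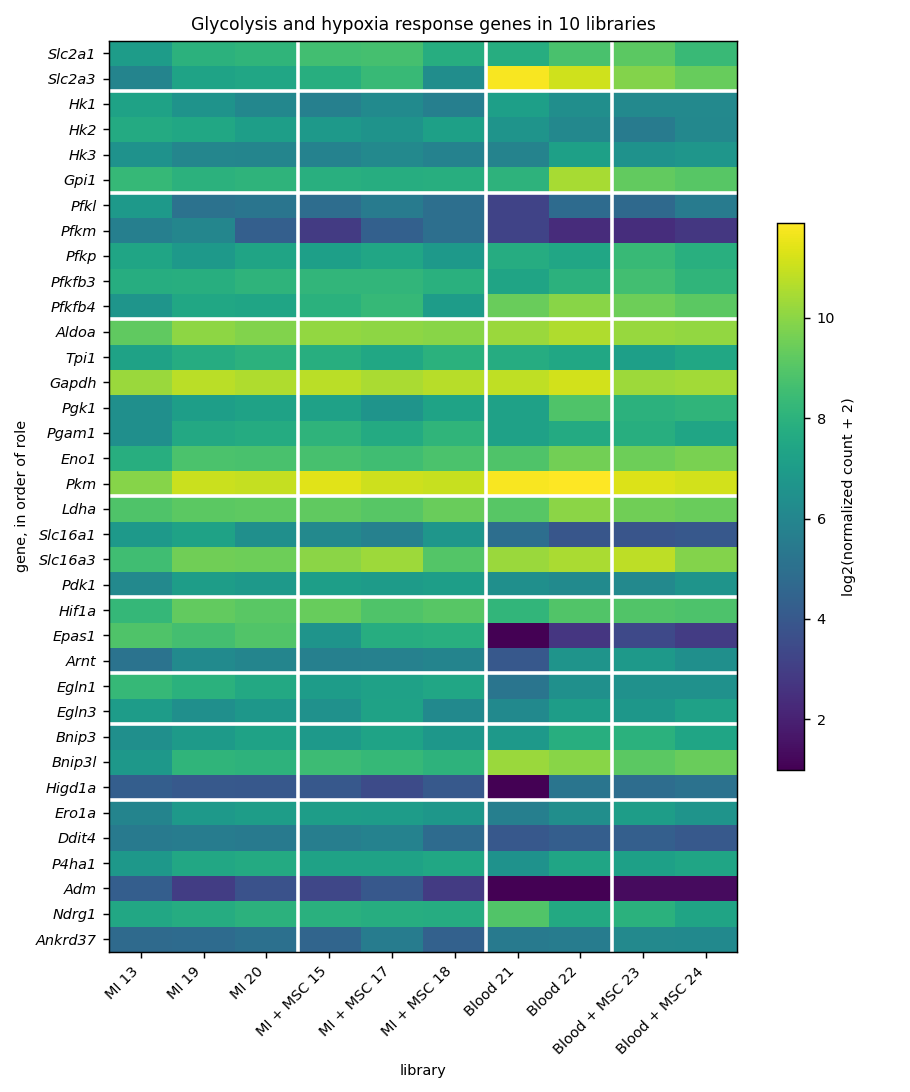
Level of each of the 36 genes (rows, in order of role) in each of the 10 libraries (columns), as log2(normalized count + 2). White lines separate roles and groups. Slc2a3 is bright in the 4 blood libraries (656 to 3561 normalized counts) and Epas1 dark in them (0 to 8.67).

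The comparison of infarct with blood asks how the set differs between Ly6G+ selections from the injured heart and from blood. The cardiac selections also held RNA of cardiomyocyte markers, whose part in the differences was not tested. In MI against Blood, 10 of 35 members passed the test (an adjusted p under 0.05, with a log2 fold change beyond 0.5 in either direction), against 34.7% of all genes tested (also 10 with a pseudocount of 1, against 34.1%). Where no other setting is named, a gene is said to pass or not to pass by limma with all 10 libraries fitted together. Of the 10, 7 were higher in MI (Epas1, Pfkm, Slc16a1, Egln1, Pfkl, Ddit4 and Hk2), against 21.2% of all genes. The other 3 were lower (Slc2a3, Pfkfb4 and Bnip3l), against 13.5%. The members' share of 28.6% was thus near the background. At an unadjusted p under 0.05 the share of all genes was 46.5%. The groups did not overlap for 17 members, against 55.2% of all genes, 7 of them higher in MI (31.6% of genes) and 10 lower (23.6%).

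The direction of these calls moved with the libraries and the tool. Without MI 13 and Blood 21, 15 members passed, 6 higher and 9 lower, against 39.2% of all genes. The members gained were Gpi1, Hk3, Pgk1, Eno1, Ldha and Higd1a, all lower in MI, and Pfkl was lost. Without Blood 21 alone 5 were higher and 6 lower, against 29.6% of all genes. DESeq2 on the reads gave 6 higher and 8 lower, against 34.4%, with Aldoa, Gpi1, Pgk1, Pkm and Slc16a3 gained. By edgeR 6 were higher and 5 lower, against 35.5%, with Gpi1 and Pgk1 gained.

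The pair MI + MSC against Blood + MSC used none of the same libraries, and 7 of 35 members passed in it, against 14.1% of all genes tested. Higher in the heart were Epas1, Slc16a1, Ddit4 and Hk2, against 8.23% of genes, and lower were Slc2a3, Pfkfb4 and Ankrd37, against 5.85%. At an unadjusted p under 0.05 the share of all genes was 31.2%. The groups did not overlap for 22 members, against 63.5% of all genes, 8 of them higher in MI + MSC (33.8%) and 14 lower (29.7%). The count for this pair of groups depended on the estimate of the spread. The count was 16 of 35 when these 5 libraries were fitted alone, against 34.8% of all genes in that fit. Without MI 13 and Blood 21, which are in neither group, it was 18, against 41.8% of all genes. It was 4 of 36 with no filter on low values, against 4.63% of all genes, and 1 without Blood + MSC 23, against 2.31%. It was 2 without Blood + MSC 24 or without MI + MSC 15, 3 without MI + MSC 18 and 4 without MI 19 or MI 20.

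Between the pairs, 6 members passed both times in the same direction (Slc2a3, Hk2, Pfkfb4, Slc16a1, Epas1 and Ddit4). They made up 60% of the 10 and 85.7% of the 7, and the same shares over all genes were 33.4% and 82.4%. The sign was the same in both pairs for 27 of 35 members (77.1%), against 78.1% of all genes tested. The median log2 fold change of the members was -0.20 in MI against Blood, where that of all genes was 0.15, and -0.24 in MI + MSC against Blood + MSC, where that of all genes was 0.09. Across all 10 libraries, 4 tested members had every cardiac library above every blood library (Slc16a1, Epas1, Egln1 and Ddit4), against 19.1% of all genes, and 5 had every cardiac library below (Slc2a3, Pfkfb4, Aldoa, Eno1 and Bnip3l), against 14%.

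**Figure D2:**
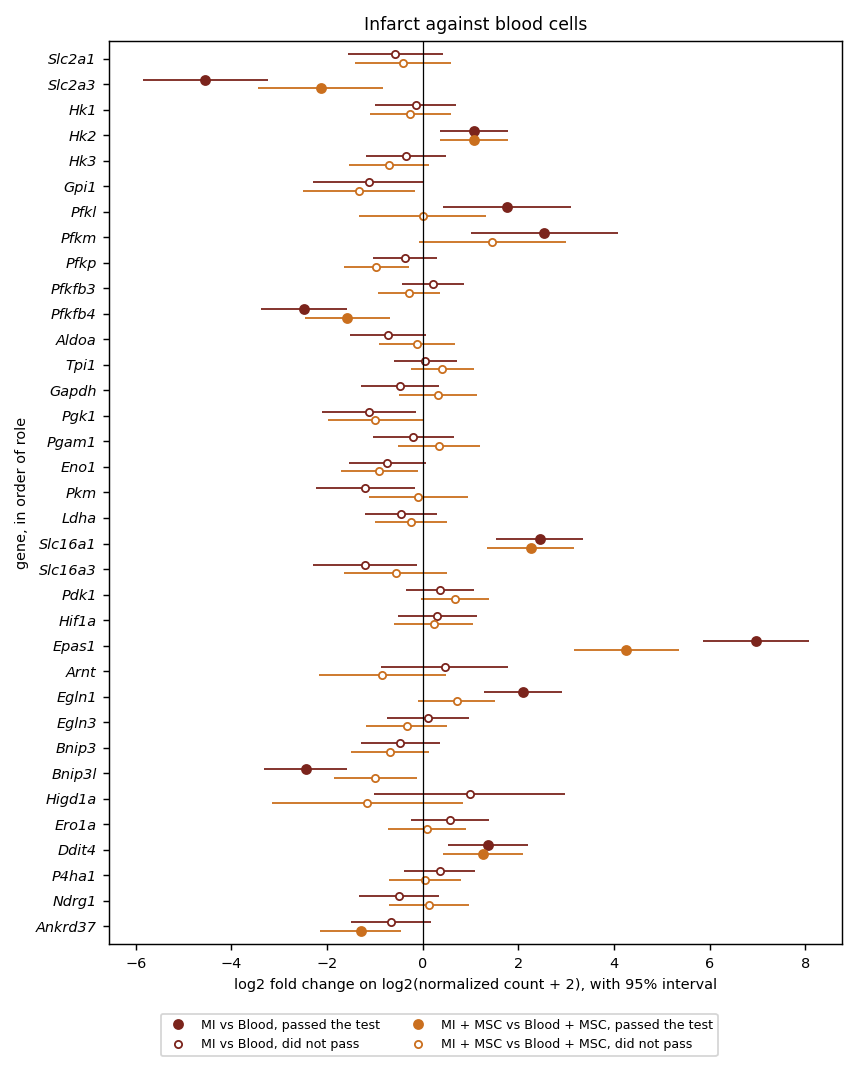
Log2 fold change (horizontal axis, on log2(normalized count + 2), with 95% interval from limma) of each tested gene in MI against Blood and in MI + MSC against Blood + MSC. Filled points passed the test, 10 in the first and 7 in the second. Epas1 lies farthest right (6.97 and 4.26) and Slc2a3 farthest left (-4.55 and -2.13).

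Glucose enters through the transporters Slc2a1 (GLUT1, the broadly expressed basal carrier) and Slc2a3 (GLUT3, a carrier of high affinity). Slc2a3 (ENSMUSG00000003153, chr6:122704768-122778599, - strand) had 58.8, 159.6 and 170.4 (MI), 224, 321 and 78 (MI + MSC), 3561 and 2184 (Blood) and 946 and 656 (Blood + MSC), in normalized counts. Every blood library lay above every cardiac library. The log2 fold change was -4.55 ± 0.60 (SE) in MI against Blood (adjusted p = 0.00037) and -2.13 ± 0.60 (SE) in MI + MSC against Blood + MSC (adjusted p = 0.0359). The first call held without each library in turn, and the second was lost without MI + MSC 15, MI + MSC 18, Blood + MSC 23 or Blood + MSC 24. Of 12 tested neutrophil markers, 10 passed as lower in MI than in Blood, and their part in the result was not tested. In Blood 21, where Slc2a3 was highest, the platelet markers were also highest, and their part was not tested either. Without that library the log2 fold change of Slc2a3 was -4.20.

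Slc2a1 (ENSMUSG00000028645, chr4:118965908-118996365, + strand) had 126, 251 and 278 (MI), 379, 409 and 217 (MI + MSC), 219 and 435 (Blood) and 559 and 331 (Blood + MSC), and the ranges of heart and blood overlapped. Its log2 fold change was -0.58 in MI against Blood (adjusted p = 0.343). Slc2a3 therefore took 51.4% to 91.1% of the sum of both transporters per kilobase of exon in blood libraries and 18.4% to 33.0% in cardiac ones. The order of the tissues held with the length of the longest coding transcript, which put Slc2a3 at 38.5% in MI and 89.7% in Blood.

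Hexokinases trap glucose in the cell by phosphorylation. Hk2 (ENSMUSG00000000628, chr6:82699740-82751469, - strand), the inducible isoform of muscle and a HIF target, had 202, 178 and 137 (MI), 114, 94.1 and 144 (MI + MSC), 98.9 and 65 (Blood) and 44.1 and 65.6 (Blood + MSC). Its log2 fold change was 1.07 ± 0.32 (SE) in MI against Blood (adjusted p = 0.0268) and 1.07 ± 0.32 (SE) in MI + MSC against Blood + MSC (adjusted p = 0.0482). In each pair the cardiac libraries lay above the blood libraries, although MI + MSC 17 was below Blood 21. The first call was lost without MI 13 (log2 fold change 0.95), without MI 19 or without Blood 22, and the second without any of 7 libraries. The part of muscle RNA in the Hk2 result was not tested.

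The ubiquitous isoform Hk1 had 151, 94.2 and 63.3 (MI), 52, 71.2 and 49.5 (MI + MSC), 141 and 81.9 (Blood) and 68.6 and 68.6 (Blood + MSC). Hk3, the isoform of myeloid cells, had 92.4, 62.5 and 59.2 (MI), 55.4, 68.9 and 54.2 (MI + MSC), 56.5 and 142 (Blood) and 92.5 and 103 (Blood + MSC). Neither passed in a comparison of heart with blood, with adjusted p from 0.232 to 0.785, and their ranges overlapped between the tissues. Hk3 passed as lower in MI + MSC than in Blood + MSC when these groups were fitted alone (adjusted p = 0.0367) and with library weights (adjusted p = 0.0069). Per kilobase, Hk2 took 33.8% to 50.9% of the 3 hexokinases in cardiac libraries and 16.6% to 30.1% in blood libraries. Hk3 took 57.5% to 63.1% in 3 of the blood libraries but 29.4% in Blood 21, within the cardiac range of 28.6% to 42.2%.

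Gpi1, the isomerase that follows, had 311, 254 and 269.7 (MI), 235, 218 and 228 (MI + MSC), 261 and 1424 (Blood) and 624 and 527 (Blood + MSC). Blood 22 was high and Blood 21 lay among the cardiac values, and the log2 fold change was -1.13 (adjusted p = 0.117). It was -2.43 without MI 13 and Blood 21. In MI + MSC against Blood + MSC it was -1.33, with the groups not overlapping, and did not pass. That difference passed when these groups were fitted alone (adjusted p = 0.0029) and with library weights (adjusted p = 0.00052).

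Phosphofructokinase, which commits sugar to glycolysis, has a liver, a muscle and a platelet isoform. Pfkm (ENSMUSG00000033065, chr15:97990451-98031417, + strand), the muscle isoform, had 50.4, 61.5 and 17.5 (MI), 5.41, 18.4 and 29.2 (MI + MSC), 7.07 and 3.25 (Blood) and 3.41 and 4.88 (Blood + MSC), and its log2 fold change was 2.54 ± 0.70 (SE) in MI against Blood (adjusted p = 0.0179), a call lost without MI 19 or Blood 22. With MSC the value for heart against blood was 1.46 (adjusted p = 0.183). MI + MSC 15 lay below Blood 21, where 7.07 is a single read. The cardiomyocyte sums beside these values were 8337 to 24900 in MI and 3265 to 12980 in MI + MSC, lowest in the same library as Pfkm, MI + MSC 15, and their part in the result was not tested.

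Pfkl (ENSMUSG00000020277, chr10:77818084-77845922, - strand), the liver isoform, had 118, 32.7 and 36 (MI), 27.7, 43.6 and 29.2 (MI + MSC), 7.07 and 26 (Blood) and 24.7 and 43.7 (Blood + MSC). Its log2 fold change was 1.76 ± 0.61 (SE) in MI against Blood (adjusted p = 0.0432) and 0 to 2 decimals in MI + MSC against Blood + MSC (95% interval -1.34 to 1.33). MI 13 was far above the other libraries and Blood 21 far below. The call was lost without any of 7 libraries, these 2 included, with a log2 fold change of 1.19 without MI 13. It was also lost with edgeR (adjusted p = 0.171) and DESeq2 (adjusted p = 0.099) on the reads.

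Pfkp, the platelet isoform, had 168, 113 and 165 (MI), 139.9, 172 and 113 (MI + MSC), 212 and 170.2 (Blood) and 325 and 233 (Blood + MSC). It did not pass in MI against Blood (adjusted p = 0.368) or in MI + MSC against Blood + MSC, where its log2 fold change was -0.97 (adjusted p = 0.0565). It passed in the latter when these groups were fitted alone (adjusted p = 0.0217) and with library weights (adjusted p = 0.0028). As a share of the 3 isoforms per kilobase it was 78.2% to 90.6% in blood libraries and 40.9% to 75.5% in cardiac ones, which did not overlap.

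The bifunctional enzymes Pfkfb3 and Pfkfb4 set the level of fructose 2,6-bisphosphate, the activator of phosphofructokinase. Pfkfb4 (ENSMUSG00000025648, chr9:108820832-108862847, + strand) had 101, 178 and 169 (MI), 243, 312 and 127 (MI + MSC), 678 and 991 (Blood) and 719 and 567 (Blood + MSC), with all blood libraries above all cardiac libraries. The log2 fold change was -2.49 ± 0.41 (SE) in MI against Blood (adjusted p = 0.00143) and -1.57 ± 0.41 (SE) in MI + MSC against Blood + MSC (adjusted p = 0.0269). The first call held without each library in turn, and the second was lost without MI + MSC 15, MI + MSC 18 or either Blood + MSC library. The neutrophil marker sums were 2555 to 13570 in cardiac libraries and 16770 to 53440 in blood libraries. Their part in the Pfkfb4 result was not tested. Pfkfb3 had 163 to 387 normalized counts over all libraries, with overlapping ranges, and its log2 fold change was 0.22 in MI against Blood. Pfkfb4 took 68.6% to 83.1% of the sum of both per kilobase in blood and 35.2% to 56.5% in the heart.

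**Figure D3:**
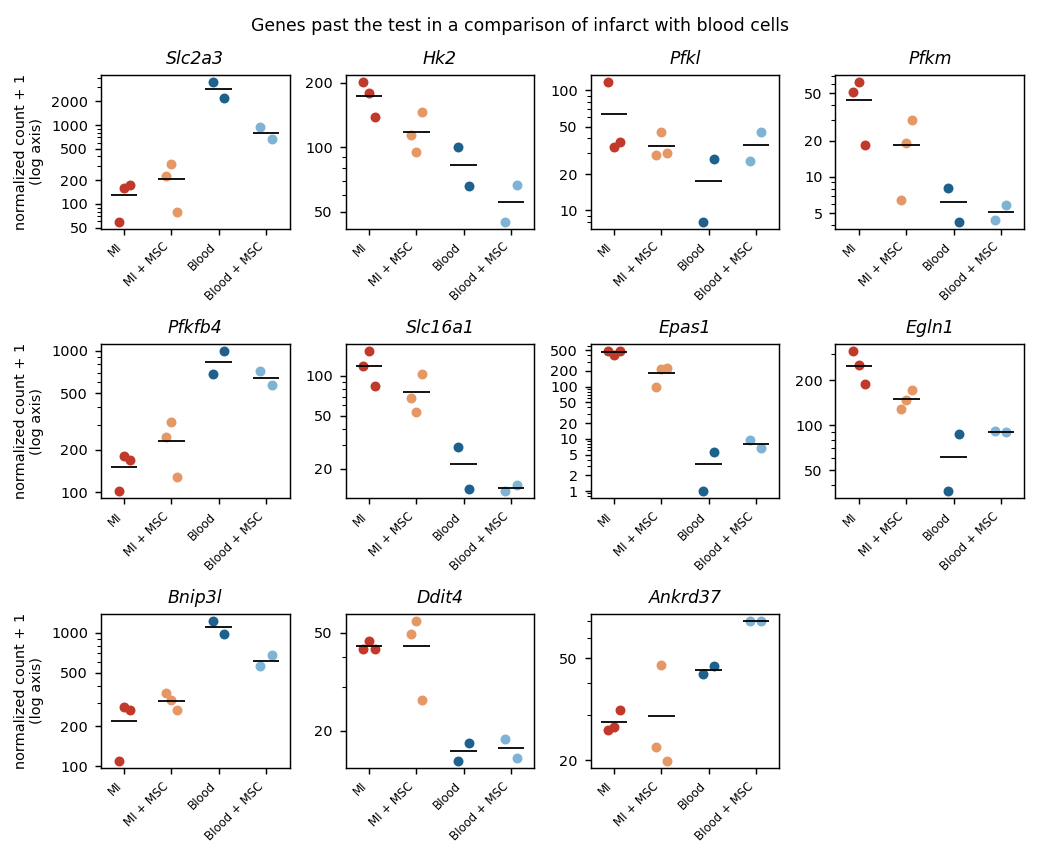
Normalized counts plus 1 (log axis) of the 11 members that passed the test in MI against Blood or in MI + MSC against Blood + MSC. Each point is a library and each bar the mean of the group (3, 3, 2 and 2 libraries). Slc2a3, Pfkfb4 and Bnip3l are above the cardiac libraries in every blood library, and Slc16a1, Epas1, Egln1 and Ddit4 are below them.

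The 7 enzymes of lower glycolysis (Aldoa, Tpi1, Gapdh, Pgk1, Pgam1, Eno1 and Pkm) ran from aldolase to pyruvate kinase. With all 10 libraries fitted together none of the 7 passed in any comparison by limma, and the lowest adjusted p was 0.068. Pgk1 and Eno1 passed as lower in MI than in Blood without MI 13 and Blood 21, at -1.70 (adjusted p = 0.0027) and -0.78 (adjusted p = 0.042). Both also passed as lower in MI + MSC than in Blood + MSC when these groups were fitted alone, with adjusted p of 0.0181 and 0.0194, and with library weights. In MI against Blood 1 of 7 had a positive log2 fold change, and the median was -0.73. In MI + MSC against Blood + MSC 3 of 7 were positive, with a median of -0.09, and 0 of 7 with a median of -0.71 when the libraries were scaled by TMM over all genes. Aldoa was at 597 to 1103 in the cardiac libraries and 1110 to 1546 in the blood libraries, and Eno1 at 227 to 447 and 466 to 833. Both therefore separated the tissues across all libraries, Aldoa only narrowly (1103 in MI + MSC 15 against 1110 in Blood + MSC 24). The log2 fold changes in MI against Blood were -0.73 ± 0.36 (SE) for Aldoa (adjusted p = 0.136) and -0.75 ± 0.37 (SE) for Eno1 (adjusted p = 0.133). In MI + MSC against Blood + MSC, with these groups fitted alone, they were -0.12 and -0.91. MI 13 was the lowest cardiac library for Aldoa, Tpi1, Gapdh, Pgk1, Pgam1, Eno1 and Pkm alike. Without it the median in MI against Blood was -0.43.

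Pyruvate becomes lactate through Ldha, the kinase Pdk1 restrains its oxidation in mitochondria, and monocarboxylate transporters move lactate across the membrane. Slc16a1 (ENSMUSG00000032902, chr3:104545811-104565780, + strand), which encodes MCT1, had 118, 153 and 82.9 (MI), 66.9, 52.8 and 103 (MI + MSC), 28.3 and 13 (Blood) and 12.6 and 14.1 (Blood + MSC). All 6 cardiac libraries were above all 4 blood libraries. The log2 fold change was 2.45 ± 0.41 (SE) in MI against Blood (adjusted p = 0.00168), which held without each library in turn. It was 2.26 ± 0.41 (SE) in MI + MSC against Blood + MSC (adjusted p = 0.00548), which was lost without Blood + MSC 23. The cardiomyocyte sums were 3265 to 24900 in cardiac libraries and 22.6 to 63.6 in blood libraries. The part of muscle RNA in the Slc16a1 result was not tested.

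Slc16a3, which encodes MCT4, the lactate exporter of glycolytic cells, had 369.8, 742 and 714 (MI), 1011, 1265 and 499 (MI + MSC), 1229 and 1466 (Blood) and 1768 and 925 (Blood + MSC). The ranges of heart and blood overlapped through MI + MSC 15, MI + MSC 17 and Blood + MSC 24. Its log2 fold change was -1.21 in MI against Blood (adjusted p = 0.0768). Slc16a1 took 8.2% to 40.5% of the sum of both transporters per kilobase in cardiac libraries and 1.5% to 4.69% in blood libraries. Ldha was at 471 to 670 in cardiac and 530 to 1018 in blood libraries, and Pdk1 at 67.2 to 137 and 68.3 to 98.4, and neither passed with all libraries. Without MI 13 and Blood 21, Ldha was lower in MI than in Blood at -0.82 (adjusted p = 0.040), and Pdk1 was higher in MI + MSC than in Blood + MSC at 0.67 (adjusted p = 0.028).

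**Figure D4:**
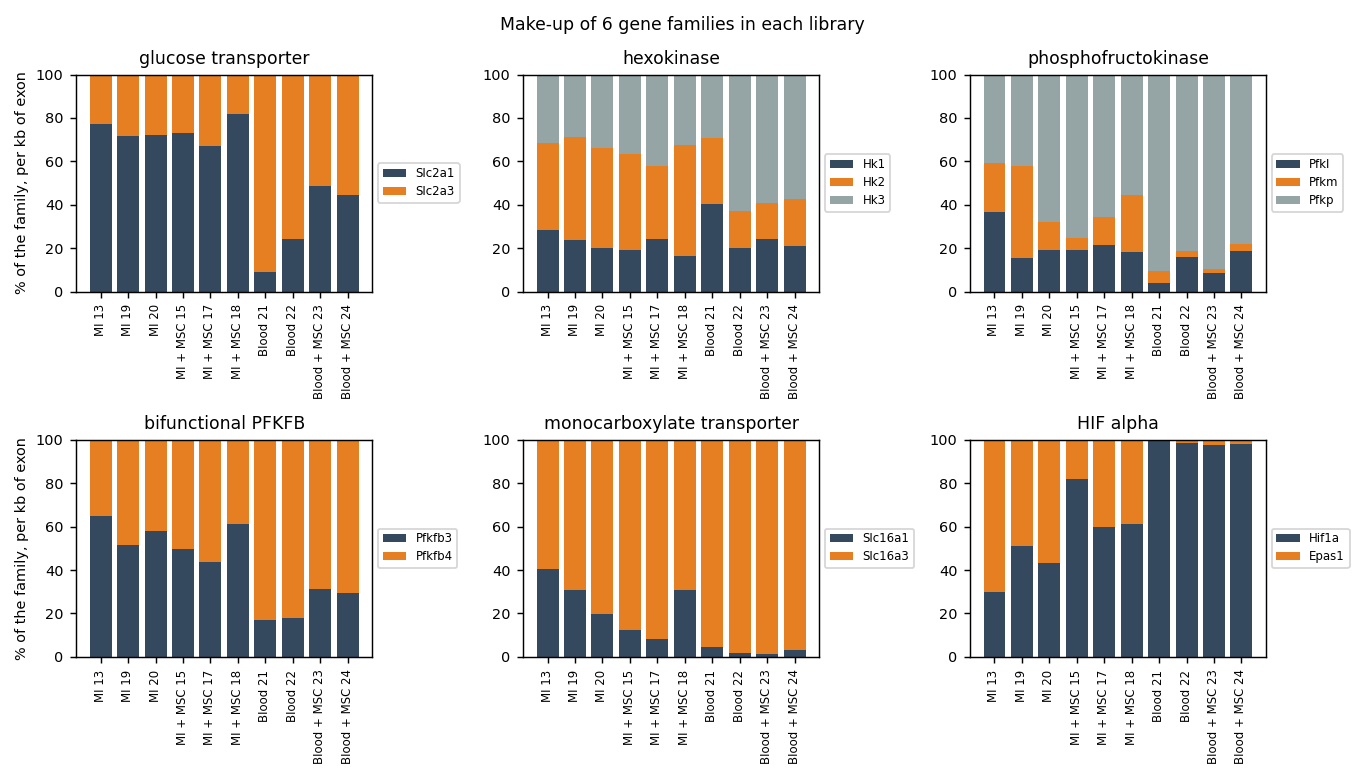
Share of each member in its gene family (vertical axis, percent of the family's summed normalized count per kilobase of exon) in the 10 libraries, for 6 families. Slc2a3 made up 51.4% to 91.1% of its pair in blood libraries and 18.4% to 33.0% in cardiac ones, and Epas1 0% to 2.60% and 18% to 70.1%.

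Among HIF subunits, Epas1 (ENSMUSG00000024140, chr17:87061087-87140838, + strand), the alpha subunit HIF-2α that is abundant in endothelium, had 479, 399.9 and 481 (MI), 97.3, 216 and 232 (MI + MSC), 0 and 4.55 (Blood) and 8.67 and 5.55 (Blood + MSC). The blood values were 0, 7, 33 and 33 reads, and every cardiac library was far above them. The log2 fold change was 6.97 ± 0.50 (SE) in MI against Blood (adjusted p = 8.7e-06) and 4.26 ± 0.50 (SE) in MI + MSC against Blood + MSC (adjusted p = 0.000607). Both calls held without each library in turn and under all 11 other settings. Beside them, 6 of 9 tested endothelial markers and 6 of 8 mural markers passed as higher in MI than in Blood, and the part of those cells in the result was not tested.

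Hif1a, the alpha subunit that dominates in myeloid cells, had 303, 617 and 545 (MI), 657, 473 and 536 (MI + MSC), 289.7 and 492 (Blood) and 480.4 and 461 (Blood + MSC). The tissues overlapped, and its log2 fold change was 0.30 in MI against Blood (95% interval -0.52 to 1.13) and 0.22 in MI + MSC against Blood + MSC (-0.60 to 1.05). Epas1 was 18% to 70.1% of the sum of both alpha subunits per kilobase in the heart and 0% to 2.60% in blood. Arnt, the shared partner, had 33.6, 72.1 and 59.7 (MI), 51.4, 52.8 and 58.3 (MI + MSC), 14.1 and 96.2 (Blood) and 117 and 83.5 (Blood + MSC). Its ranges overlapped between MI and Blood, where the log2 fold change of 0.46 was -0.85 without Blood 21. The MI + MSC libraries were all below the Blood + MSC libraries, with a log2 fold change of -0.85 (adjusted p = 0.367). That difference passed when these groups were fitted alone (adjusted p = 0.0235), with library weights, or without MI 13 and Blood 21 (adjusted p = 0.012).

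The prolyl hydroxylases are the oxygen sensors. Egln1 (ENSMUSG00000031987, chr8:125635308-125676865, - strand), encoding PHD2, had 311, 249.9 and 186 (MI), 128, 147 and 171 (MI + MSC), 35.3 and 85.8 (Blood) and 90.4 and 89 (Blood + MSC). The cardiac libraries lay above the blood libraries, and the log2 fold change was 2.10 ± 0.37 (SE) in MI against Blood (adjusted p = 0.00209), a call that held without each library in turn. In MI + MSC against Blood + MSC it was 0.71 (adjusted p = 0.22). That difference passed when these groups were fitted alone (adjusted p = 0.0343) and with library weights (adjusted p = 0.0264).

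Egln3, encoding the hypoxia-induced PHD3, had 126, 84.6 and 107 (MI), 89.9, 152 and 69.1 (MI + MSC), 70.7 and 132 (Blood) and 105 and 147 (Blood + MSC). Heart and blood overlapped and the log2 fold changes were 0.11 and -0.34. Egln3 took 53.0% to 77.5% of the sum of both sensors per kilobase in the heart and 79.5% to 87.0% in blood.

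Bnip3 and Bnip3l encode mitophagy receptors, and Bnip3l also clears mitochondria from maturing red cells. Bnip3l (ENSMUSG00000022051, chr14:67222678-67246356, - strand) had 109, 275 and 264 (MI), 351, 315 and 262 (MI + MSC), 1229 and 981 (Blood) and 558 and 675 (Blood + MSC). All blood libraries were above all cardiac libraries, and the log2 fold change was -2.45 ± 0.40 (SE) in MI against Blood (adjusted p = 0.00131), which held without each library in turn. In MI + MSC against Blood + MSC it was -0.99 (adjusted p = 0.116). That difference passed when these groups were fitted alone (adjusted p = 0.0147) and with library weights (adjusted p = 0.0028). The sums of 7 erythroid markers were 488 in Blood 21, 9559 in Blood 22, 2620 to 5668 in Blood + MSC and 52.0 to 311 in the heart. The part of erythroid RNA in the Bnip3l result was not tested.

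Bnip3 was at 84.0 to 158 in cardiac and 113 to 247 in blood libraries and did not pass. Higd1a, which protects the respiratory chain in hypoxia, had 16.8, 14.4 and 13.9 (MI), 14.2, 9.18 and 14.2 (MI + MSC), 0 and 35.1 (Blood) and 27.8 and 32.3 (Blood + MSC). Blood 21 was at 0 reads, where 3 reads would have been 21.2 normalized counts. Its log2 fold change in MI against Blood was 0.98 (adjusted p = 0.423), and it was -1.13 without Blood 21, so its sign in that comparison rested on that library. In MI + MSC against Blood + MSC it was -1.16, with the groups not overlapping, and did not pass. That difference passed when these groups were fitted alone (adjusted p = 0.028) and with library weights (adjusted p = 0.043).

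Of the other HIF-responsive genes, Ddit4 (ENSMUSG00000020108, chr10:59785491-59788492, - strand), encoding the mTORC1 inhibitor REDD1, had 42, 45.2 and 42.2 (MI), 48.7, 55.1 and 25.8 (MI + MSC), 14.1 and 16.9 (Blood) and 17.6 and 14.5 (Blood + MSC). All cardiac libraries were above all blood libraries. The log2 fold change was 1.37 ± 0.38 (SE) in MI against Blood (adjusted p = 0.0185) and 1.26 ± 0.38 (SE) in MI + MSC against Blood + MSC (adjusted p = 0.0482). The first call was lost without MI 19 or Blood 21, and the second without any of 6 libraries.

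Ankrd37 (ENSMUSG00000050914, chr8:46449939-46458744, - strand), an ankyrin repeat gene induced by HIF-1, had 25.2, 26 and 30.4 (MI), 21.6, 45.9 and 19 (MI + MSC), 42.4 and 45.5 (Blood) and 68.6 and 69 (Blood + MSC). It was lower in the heart in MI + MSC against Blood + MSC, with a log2 fold change of -1.30 ± 0.38 (SE) (adjusted p = 0.0439), which was lost without any of 6 libraries. In MI against Blood it was -0.66 (adjusted p = 0.198), with the groups not overlapping. Adm was at 5.42 to 16.8 in the heart and 0 to 0.525 in blood, of which the blood values were 0, 0, 2 and 3 reads, so no fold change is given. Ero1a (49.5 to 132 over all libraries), P4ha1 (91.8 to 203) and Ndrg1 (164 to 488, highest in Blood 21) had overlapping ranges and did not pass.

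The comparisons of MSC-treated with untreated mice ask whether stromal cells placed at a distance change the set. In MI + MSC against MI, 0 of 35 members passed by limma, and 0 of 11549 genes did (0%). At an unadjusted p under 0.05 there was 1 member (2.86%), against 8.01% of all genes. By edgeR and by DESeq2 on the reads 0 members passed, with 0 and 76 genes (0.658%) in all. Weighting libraries by their quality in limma gave 5 members, all lower with MSC (Epas1, Egln1, Hk1, Pfkm and Slc16a1), against 9.53% of all genes under that weighting.

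The groups of the heart did not overlap for 3 members, all lower in MI + MSC (Gpi1, Epas1 and Egln1), against 9.6% of genes that were lower without overlap. No member was higher without overlap, against 7.05% of genes. Epas1 had the largest change, at -1.40 ± 0.45 (SE) (95% interval -2.39 to -0.41, adjusted p = 0.53 by limma). All 3 MI libraries (399.9 to 481 normalized counts) were above all 3 MI + MSC libraries (97.3 to 232). The edgeR adjusted p was 0.172, with DESeq2 0.0571, and with library weights 0.0034 at a log2 fold change of -1.61. The endothelial sums moved with it, at 1893 to 2054 in MI and 456 to 859.6 in MI + MSC, as did the mural sums, at 1014 to 1219 and 282 to 689. All 9 tested endothelial and all 8 tested mural markers had a negative log2 fold change, none past the test, and their part in the Epas1 values was not tested.

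Pfkm followed at -1.26 ± 0.63 (SE) (adjusted p = 0.635) and Hk1 at -0.75 ± 0.34 (SE) (adjusted p = 0.618), with overlapping groups. Without MI 13 these values were -1.07 and -0.43, and without MI + MSC 15 that of Pfkm was -0.67. The 10 cardiomyocyte markers also all had a negative log2 fold change in this comparison. Egln1 was -0.72 (95% interval -1.44 to 0.01).

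The enzymes of lower glycolysis were positive in 7 of 7 cases, with a median of 0.21, and none passed. Without MI 13 they were positive in 4 of 7, with a median of 0.00. Over all 35 members the median was 0.08 with 21 positive, and without MI 13 it was -0.07 with 14 positive, so the tilt of the set rested on that library. For Gapdh the 95% interval was -0.60 to 0.87, for Ldha -0.51 to 0.83 and for Hif1a -0.50 to 0.97.

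**Figure D5:**
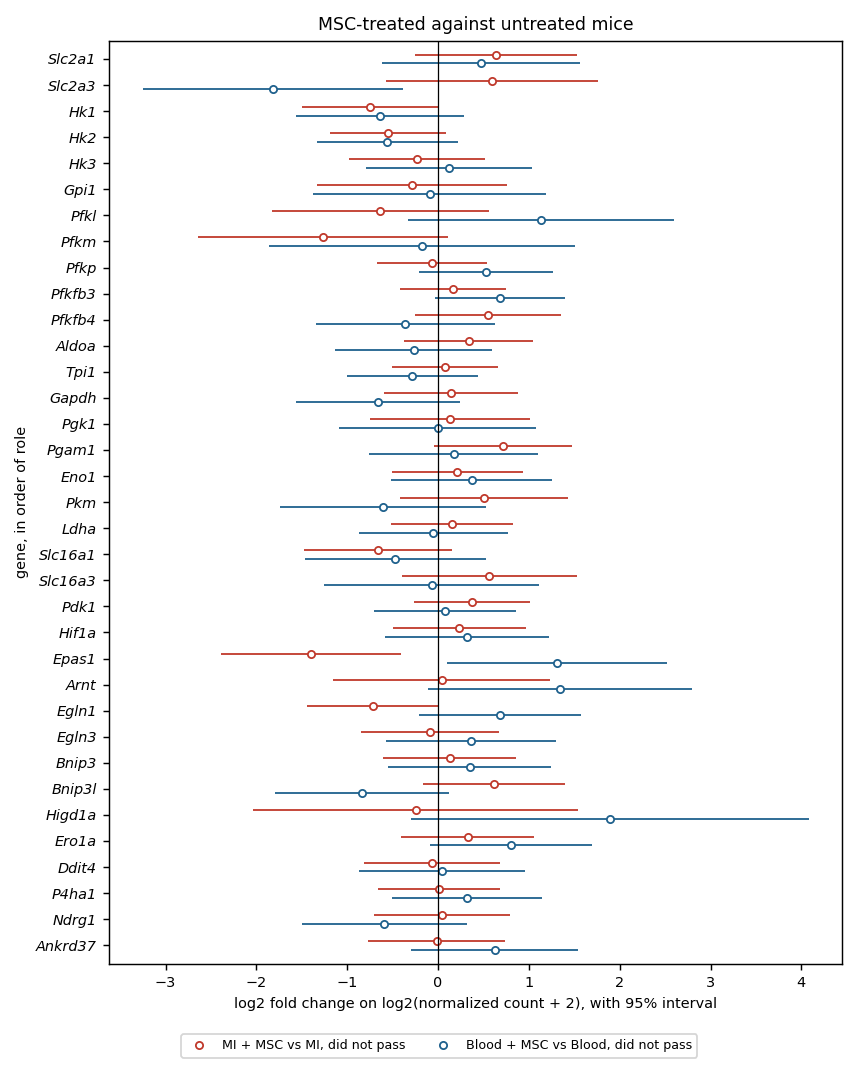
Log2 fold change (horizontal axis, on log2(normalized count + 2), with 95% interval from limma) of each tested gene in MI + MSC against MI and in Blood + MSC against Blood. All points are open because none passed the test. Epas1 is the leftmost gene of the heart (-1.40) and lies right of 0 in blood (1.31).

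In Blood + MSC against Blood, 0 of 35 members passed by limma, as did 0 of 11549 genes (0%), and 0 members passed by edgeR (0 genes) or DESeq2 (179 genes, 1.55%). At an unadjusted p under 0.05 there were 2 members (5.71%), against 7.34% of all genes. The groups did not overlap for 12 members (34.3%), against 36.4% of all genes. Pfkp, Pfkfb3, Epas1, Egln1, Ero1a and Ankrd37 were higher with MSC, against 21% of genes that were higher without overlap. Slc2a3, Hk1, Aldoa, Gapdh, Pkm and Bnip3l were lower, against 15.4%. For Epas1 the lack of overlap rested on 0 reads in Blood 21, where 1 read was worth 7.07 normalized counts.

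The members with the largest differences were Higd1a, Slc2a3 and Arnt. Slc2a3 was at 2184 and 3561 in Blood and at 656 and 946 in Blood + MSC, a log2 fold change of -1.82 ± 0.65 (SE) (95% interval -3.25 to -0.39, adjusted p = 0.672), which ran from -2.17 to -1.47 over the omissions of single libraries. The neutrophil marker sums were 44790 (Blood 21) and 53440 (Blood 22), and 23730 and 16770 in Blood + MSC. Of 12 tested neutrophil markers, 1 had a positive log2 fold change, and none passed. The platelet marker sums were 27390 (Blood 21) and 1144 (Blood 22), and 710 and 604 in Blood + MSC. The part of these cells in the Slc2a3 values was not tested. Higd1a was 1.89 with Blood 21 and -0.21 without it. Arnt was 1.34 ± 0.67 (SE), and 0.04 without Blood 21. Blood 21 was the lowest blood library for 20 of 35 members (57.1%), against 48.1% of all genes. Without Blood 22, which leaves Blood 21 alone in its group with its spread taken from the other groups, 6 members passed (Arnt, Egln1, Epas1, Gpi1 and Higd1a higher, Ndrg1 lower), against 12.8% of all genes.

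The difference between the MSC effects of heart and blood did not pass for any of the 35 members, as for 0 of 11549 genes (0%), by limma. At an unadjusted p under 0.05 there were 4 members (11.4%), against 7.26% of all genes. They were Epas1 at -2.71 ± 0.71 (SE), Slc2a3 at 2.42 ± 0.84 (SE), Egln1 at -1.40 ± 0.52 (SE) and Bnip3l at 1.46 ± 0.56 (SE), each with an adjusted p of 0.63. The median over the members was -0.11, and that over all genes was -0.12. By edgeR 0 members and 0 genes passed, and by DESeq2 0 members and 18 genes (0.156%). Without Blood 22, 5 members passed (Arnt, Egln1, Epas1, Gpi1 and Higd1a, all negative), against 9.25% of all genes.

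Other genes of the same pathways were counted from fixed lists. Of 40 other genes of glycolysis, glycogen and pyruvate use, 36 were in the table and 25 were tested. In MI against Blood 15 were higher, against 21.2% of all genes, and 4 lower, against 13.5%. Their median was 1.34, where that of all genes was 0.15. In the mice given MSC 3 were higher in the heart, against 8.23%, and 1 lower, against 5.85%, with a median of 0.35, where that of all genes was 0.09. Ldhb, the lactate dehydrogenase subunit of oxidative muscle such as the heart, had 151, 126 and 46.8 (MI), 20.3, 39 and 69.1 (MI + MSC), 7.07 and 7.15 (Blood) and 6.83 and 8.75 (Blood + MSC). Its log2 fold changes were 3.44 (adjusted p = 0.0014) and 2.05 (adjusted p = 0.034). Pdk4, the pyruvate dehydrogenase kinase of fatty acid use in heart and muscle, had 151, 70.2 and 47.4 (MI), 13.5, 48.2 and 42.7 (MI + MSC), 0 and 0 (Blood) and 0.788 and 2.69 (Blood + MSC). Against a floor of 3 reads in each Blood library, the MI mean was at least 7.74-fold higher. Pygl, the glycogen phosphorylase of liver and myeloid cells, had 101, 261 and 224 (MI), 263, 381 and 130.2 (MI + MSC), 1081 and 3183 (Blood) and 1713 and 1239 (Blood + MSC), with log2 fold changes of -3.34 and -2.62 (adjusted p = 0.0018 and 0.013). All 10 cardiomyocyte markers passed as higher in MI than in Blood and in MI + MSC than in Blood + MSC, and the part of muscle RNA in these counts was not tested. Of 12 tested neutrophil markers, 10 passed as lower in MI than in Blood and 3 in the mice given MSC. Their part in the Pygl values was not tested.

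Of 41 other genes of the HIF pathway, 40 were in the table and 35 were tested. In MI against Blood 13 were higher, against 21.2% of all genes, and 3 lower, against 13.5%, with a median of 0.60. In the mice given MSC 10 were higher in the heart, against 8.23%, and 1 lower, against 5.85%, with a median of 0.51. Hilpda, an inhibitor of lipid droplet breakdown induced by hypoxia, had 92.4, 111.5 and 317 (MI), 663, 983 and 432 (MI + MSC), 7.07 and 8.45 (Blood) and 27.3 and 16.8 (Blood + MSC). Every cardiac library was above every blood library, with log2 fold changes of 3.95 (adjusted p = 0.00033) and 4.81 (adjusted p = 0.00031). Hmox1, the haem-degrading oxygenase, had 387, 1164 and 1002 (MI), 1935, 622 and 1297 (MI + MSC), 155 and 101 (Blood) and 141 and 136 (Blood + MSC), with log2 fold changes of 2.59 and 3.05 (adjusted p = 0.0047 and 0.0043). Ppp1r3c had the largest change of this list in MI against Blood. It had 92.4, 65.4 and 34.5 (MI), 20.3, 36.7 and 33.9 (MI + MSC), 0 and 0 (Blood) and 0.788 and 0.337 (Blood + MSC). Against a floor of 3 reads in each Blood library, its MI mean was at least 5.54-fold higher. The part of muscle RNA and of other cells in the counts of this list was not tested. In the comparisons with MSC 0 genes of either list passed by limma.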

How the data were processed

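RNA-seq was made from Ly6G+ cells of 10 libraries. Per the study's methods and the labels, ribosomal RNA was depleted, reads were trimmed with Trimmomatic, freed of duplicates with Picard, aligned to GRCm39 with STAR and counted by strand with featureCounts, and mitochondrial reads were removed. The authors divided counts by DESeq2 size factors, and these normalized count values (a signal unit) are what was deposited, also in the file described as raw counts, where all 281850 values were equal to the normalized ones. Because values in a library were multiples of 1 read, whole reads were recovered for 100% of values (tolerance 0.01).

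Values were analysed as log2(value + 2) with limma 3.58.1 (R 4.3.3), fitted over all 10 libraries with a mean for each group and a variance trend, for 11549 genes with a mean of at least 10. Benjamini-Hochberg adjustment covered all genes tested, and a gene passed at an adjusted p under 0.05 if its log2 fold change was also 0.5 or more in size (the difference between the MSC effects at the adjusted p alone). The log2(value + 2) scale understates changes of low genes. Alternatives were a pseudocount of 1 or 10, no filter, a minimum of 20, TMM scaling, library weights (arrayWeights), edgeR 4.0.16 and DESeq2 1.42.0 on recovered reads (4104 and 3974 genes passed in MI against Blood, and 4008 by limma), the groups compared alone and each library left out. The scripts were tested on simulated data. Lengths, positions and promoters came from GENCODE M39 on GRCm39.

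The members, lists and tests were chosen with earlier results of these data known. Values per library are given for members that passed a test, the 3 largest changes in each MSC comparison and all members of 6 families. Of other pathway genes, each one named was among the 4 with the largest change that passed in at least 1 comparison.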

Additional observations from a re-analysis of the deposited data

Results flagged for a closer look

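The log2 fold changes of Epas1 with MSC had opposite signs in the tissues, and its groups did not overlap in either. It was at 399.9 to 481 normalized counts in MI and 97.3 to 232 in MI + MSC (log2 fold change -1.40), whereas the Blood libraries had 0 and 4.55 and the Blood + MSC libraries 5.55 and 8.67 (1.31). The blood values came from 0 to 33 reads. In Blood 21, at 0 reads, 1 read would have been 7.07 normalized counts, above the 5.55 of a Blood + MSC library. The lack of overlap in blood was therefore not resolved. The difference between the effects was -2.71 ± 0.71 (SE), with an adjusted p of 0.63 by limma.

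Egln1 showed the same pattern. It was at 186 to 311 in MI and 128 to 171 in MI + MSC (log2 fold change -0.72), whereas the Blood libraries had 35.3 and 85.8 and the Blood + MSC libraries 89.0 and 90.4 (0.68). The difference was -1.40 ± 0.52 (SE) (adjusted p = 0.63). Without Blood 21 the change of Egln1 in blood was 0.06 and that of Epas1 0.46. Blood 21 held 268860 reads.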

How the results depend on the processing

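The count of members that passed in MI + MSC against MI was 0 under every alternative except library weights, where it was 5. In Blood + MSC against Blood it was 0 except without Blood 22, and ran from 0 to 6 over the omissions of single libraries. In MI against Blood it was 10 (7 higher and 3 lower), with 6 under library weights, 15 without MI 13 and Blood 21 (6 higher and 9 lower), 14 with DESeq2 (6 and 8) and a range of 7 to 11 over single omissions. In MI + MSC against Blood + MSC it was 7, with 4 under no filter on low values, 18 without MI 13 and Blood 21 (chosen after seeing the data), 18 under library weights, 12 with edgeR, 12 with DESeq2, 16 with the groups compared alone and a range of 1 to 11 over single omissions. For the difference between the MSC effects it ran from 0 to 5. Shares of all genes that passed under library weights were 9.53% in MI + MSC against MI and 16.3% in MI against Blood. In MI + MSC against Blood + MSC these shares were 46.6% under library weights, 32% with edgeR and 29% with DESeq2. Slc2a3, Pfkfb4, Slc16a1, Epas1, Egln1 and Bnip3l passed in MI against Blood under all alternatives and omissions. Higd1a in Blood + MSC against Blood reversed to -0.21 without Blood 21, alone or together with MI 13. TMM scaling over all genes (chosen after seeing the data) moved the median of all genes from 0.11 to 0.72 in Blood + MSC against Blood, from -0.01 to 0.25 in MI + MSC against MI, from 0.15 to -0.07 in MI against Blood and from 0.09 to -0.50 in MI + MSC against Blood + MSC. In the last it left 2 members higher and 3 lower, against 11.4% of all genes in either direction. In MI against Blood it left 4 higher and 3 lower, against 21.6%. TMM over the tested genes gave 2 higher and 4 lower in MI + MSC against Blood + MSC, against 15% of all genes in either direction. For all genes in that pair 38% of calls were higher under the first scaling and 50.5% under the second. With the length of the longest coding transcript in place of all exons, Hk3 was 28% of hexokinases in MI (31.3% with exons) and 51.4% in Blood + MSC (58.4%). Slc2a3 was 38.5% of its pair in MI (26.3%), 38.1% in MI + MSC (26.1%) and 66.9% in Blood + MSC (53.4%). Egln3 was 48.2% of its pair in MI (58.7%), 79.1% in Blood (85.3%) and 74.9% in Blood + MSC (82.1%). For the log2 fold changes of members that passed between heart and blood and of the 3 largest in each MSC comparison, 411 values under these alternatives stayed in direction and side of the threshold, 64 lost the call, 5 gained it and 2 changed sign. Calls gained and signs changed by other members are not in these numbers. No paired analysis was possible because the labels did not state which heart and blood libraries, if any, came from the same mouse. In the paper's methods blood was drawn from the animals before their hearts were removed, so heart and blood libraries may share mice. With 2 or 3 libraries per group and 268860 and 148594 reads in Blood 21 and MI 13, low genes such as Higd1a, Pfkm and Adm were not resolved in those libraries. Epas1, at 0 reads, was not resolved in Blood 21.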
